A study of Homo sapiens with 27 samples.

Results

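The genes described here encode the machinery that makes ribosomes in the nucleolus, and they were taken by name from a list of 41 human symbols. The rule used no measured value, but the list was drawn up with earlier results of these data known. Of these, 40 had a row among the 24566 rows of the count table, and BOP1 was not analysed here. They comprised 4 factors of RNA polymerase I, 9 small subunit processome proteins, 6 small subunit maturation factors and 8 large subunit assembly factors. The others were 3 box C/D and 4 box H/ACA snoRNP proteins, 3 nucleolar chaperones, 2 nucleases of the RNA exosome, and the transcription factor MYC.

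RNA polymerase I transcribes the ribosomal DNA into a long precursor, which is folded, cut and chemically modified while ribosomal proteins join it. Box C/D snoRNPs, small RNA-protein particles built on NOP56, NOP58 and the methyltransferase FBL, methylate the precursor, and box H/ACA snoRNPs, built on the pseudouridine synthase DKC1, convert uridines in it to pseudouridine. Many of these genes are known targets of MYC, 5-FU is known to be built into RNA and to disturb processing of the precursor, and doxorubicin, which binds DNA and traps topoisomerase, is known to inhibit transcription by RNA polymerase I.

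RNA was sequenced after 48 h from 2 established human cancer lines, A431 (epidermoid carcinoma) and MDA-MB-231 (breast adenocarcinoma), in 27 libraries of 9 groups with 3 replicates each. The A431 groups were untreated, vehicle, CKI at 1 mg/mL, doxorubicin, and CKI with doxorubicin, and those of MDA-MB-231 received nothing, 5-FU at 10 ug/ml, CKI at the A431 concentration, or both agents. CKI is Compound Kushen Injection, a herbal preparation from Kushen and Baituling. The vehicle is not named in the labels, and no dose of doxorubicin is given here because the labels list several without assigning them. The question addressed was how each agent, and CKI on top of a chemotherapy drug, changed the RNA level of the ribosome-making machinery. Both lines are cultures of transformed cells, and in bulk RNA of this kind fewer cells expressing a gene and less RNA per cell cannot be told apart.

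The A431 libraries held 17757206 to 21756536 counts and those of MDA-MB-231 19871048 to 22809339, and the lowest count of any member in any library was 83. Levels are given as CPM, a gene's counts scaled to a common library total after TMM normalization, and a gene was called where the Benjamini-Hochberg adjusted p of edgeR's quasi-likelihood test, over all genes tested, was under 0.05. The line labels matched the lines' markers, with all 7 of the A431 markers (keratins, TP63, DSG3, EGFR and CDH1) higher in untreated A431 cells and 5 of the 6 MDA-MB-231 markers lower, the exception being CD44. Replicate 1 of untreated MDA-MB-231 cells stood apart from the other replicates: a chi-square test of counts gave 70.8 and 81.8 per degree of freedom against them. Pairs of A431 vehicle replicates gave 9.90, 10.8 and 28.3, and every other pair of replicates lay between 1.83 and 5.46. In replicate 1 of untreated MDA-MB-231 cells 26 of the 40 members were the highest of the 3 untreated libraries and 14 the lowest. Their log2 difference from the mean of the other replicates had a median of 0.16 and ran from -0.68 to 0.64. It followed GC content (Spearman's rho -0.66 over the 40 members), and this library enters every comparison with untreated MDA-MB-231 cells. The large ribosomal RNAs and their precursor were not analysed here, and the rows of the small ribosomal RNA genes RNA5S1 and RNA5S9 held no count in any library, which allows at most 0.132 to 0.169 CPM.

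The 5′ regions of 6 members are shown here because they differ in a motif that MYC is known to bind, the E-box CACGTG, which reads the same on both strands. The sequences are from RefSeq on GRCh38.p14, cover 250 bases before and 20 bases after the annotated start, and carry the motif in capitals. FBL, RRP9, NAT10 and UTP20 are the 4 members with the motif that had the largest decrease under CKI in A431 cells, NOP56 is the member with the largest decrease of all and DIS3 rose, and neither of the last pair holds the motif in this window. The regions lie at chr19:39846360-39846629 (FBL, reverse strand), chr3:51941885-51942154 (RRP9, reverse strand), chr11:34105379-34105648 (NAT10, forward strand), chr12:101279855-101280124 (UTP20, forward strand), chr20:2652382-2652651 (NOP56, forward strand) and chr13:72781881-72782150 (DIS3, reverse strand).
FBL: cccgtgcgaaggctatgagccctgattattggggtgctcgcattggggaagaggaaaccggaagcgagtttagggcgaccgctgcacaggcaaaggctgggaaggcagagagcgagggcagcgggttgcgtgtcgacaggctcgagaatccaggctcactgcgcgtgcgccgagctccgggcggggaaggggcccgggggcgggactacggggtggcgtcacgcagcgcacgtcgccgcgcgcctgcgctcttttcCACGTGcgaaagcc
RRP9: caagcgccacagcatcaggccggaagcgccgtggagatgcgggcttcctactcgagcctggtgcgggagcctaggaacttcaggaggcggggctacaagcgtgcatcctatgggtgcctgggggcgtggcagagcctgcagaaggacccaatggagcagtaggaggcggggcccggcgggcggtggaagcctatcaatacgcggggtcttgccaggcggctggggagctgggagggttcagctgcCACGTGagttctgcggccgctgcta
NAT10: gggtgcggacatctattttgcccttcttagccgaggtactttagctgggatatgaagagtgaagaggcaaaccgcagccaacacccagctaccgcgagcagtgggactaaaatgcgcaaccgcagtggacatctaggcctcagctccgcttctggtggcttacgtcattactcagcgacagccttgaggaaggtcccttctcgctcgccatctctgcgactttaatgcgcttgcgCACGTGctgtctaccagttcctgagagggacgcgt
UTP20: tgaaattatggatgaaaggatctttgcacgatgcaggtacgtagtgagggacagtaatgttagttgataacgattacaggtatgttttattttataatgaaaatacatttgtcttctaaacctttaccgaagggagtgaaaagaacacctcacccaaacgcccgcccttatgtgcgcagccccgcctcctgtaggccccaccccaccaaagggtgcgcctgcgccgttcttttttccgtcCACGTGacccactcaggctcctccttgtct
NOP56: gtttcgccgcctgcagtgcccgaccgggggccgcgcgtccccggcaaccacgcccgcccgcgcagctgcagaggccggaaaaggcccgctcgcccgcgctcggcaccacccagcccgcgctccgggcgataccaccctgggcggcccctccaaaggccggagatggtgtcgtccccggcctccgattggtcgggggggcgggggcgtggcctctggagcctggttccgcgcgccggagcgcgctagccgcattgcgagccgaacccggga
DIS3: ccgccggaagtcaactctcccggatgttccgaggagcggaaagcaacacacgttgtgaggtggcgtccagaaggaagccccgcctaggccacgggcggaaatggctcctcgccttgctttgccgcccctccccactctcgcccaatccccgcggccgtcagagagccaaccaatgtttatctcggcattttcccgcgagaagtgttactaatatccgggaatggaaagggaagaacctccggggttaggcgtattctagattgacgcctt

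Among the 34 members with a promoter in the RefSeq table, 16 (47.06%) held CACGTG at an annotated start, within 250 bases before to 50 after it, against 8.77% of all 27305 genes in the table. The median log2 fold change under CKI in A431 cells was -1.01 for the 16 members with the motif and -1.0 for the 18 members without it. The share of all genes includes genes not expressed in these lines, and whether expressed genes differ from it was not tested. A match is a run of letters and not a measured binding site, and its absence says only that these letters are not in this window.

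In untreated cells the members spanned a wide range of levels per length of transcript. On the scale of CPM per kb, NPM1, a nucleolar chaperone and histone-binding protein, stood highest in both lines, at 1120 ± 60.6 in A431 and 1345 ± 303.2 in MDA-MB-231 (SD, n = 3). In A431 cells NCL (nucleolin, 359 ± 10.0) came next, and NOP10 (279.9 ± 18.8) and FBL (277 ± 14.8) followed within their spread of each other. The lowest were UTP20 at 1.46 ± 0.083 in A431 and POLR1B at 3.70 ± 0.057 in MDA-MB-231. Between the untreated lines, 22 members were higher and 11 lower in A431, where 41.9% and 36.7% of the 14848 genes tested were called in these directions. The members' median log2 difference was 0.28, against 0.09 for all genes. The widest gaps were in RRS1, a large subunit assembly factor (log2 difference 1.59, SE 0.106, adjusted p = 1.02e-08), and in the small subunit factors UTP20 (-1.79, SE 0.101, adjusted p = 1.7e-09) and DDX10, an RNA helicase (-1.58, SE 0.0746, adjusted p = 2.74e-10).

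CKI lowered nearly the whole machinery in A431 cells. Of the 40 members, 38 fell and 2 rose, where 33.7% of the 15881 genes tested were called lower and 33.3% higher. All 38 had treated libraries below every untreated library, and 32.1% of all genes did. Past a fold of 2 as well, 20 members fell, against 10.4% of all genes. The median log2 fold change was -0.99 for the members and 0.00 for all genes. With 33.7% of all genes lower, the members' share of a library's total counts went from 0.628 to 0.661% in untreated cells to 0.309 to 0.316% under CKI.

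**Figure D1:**
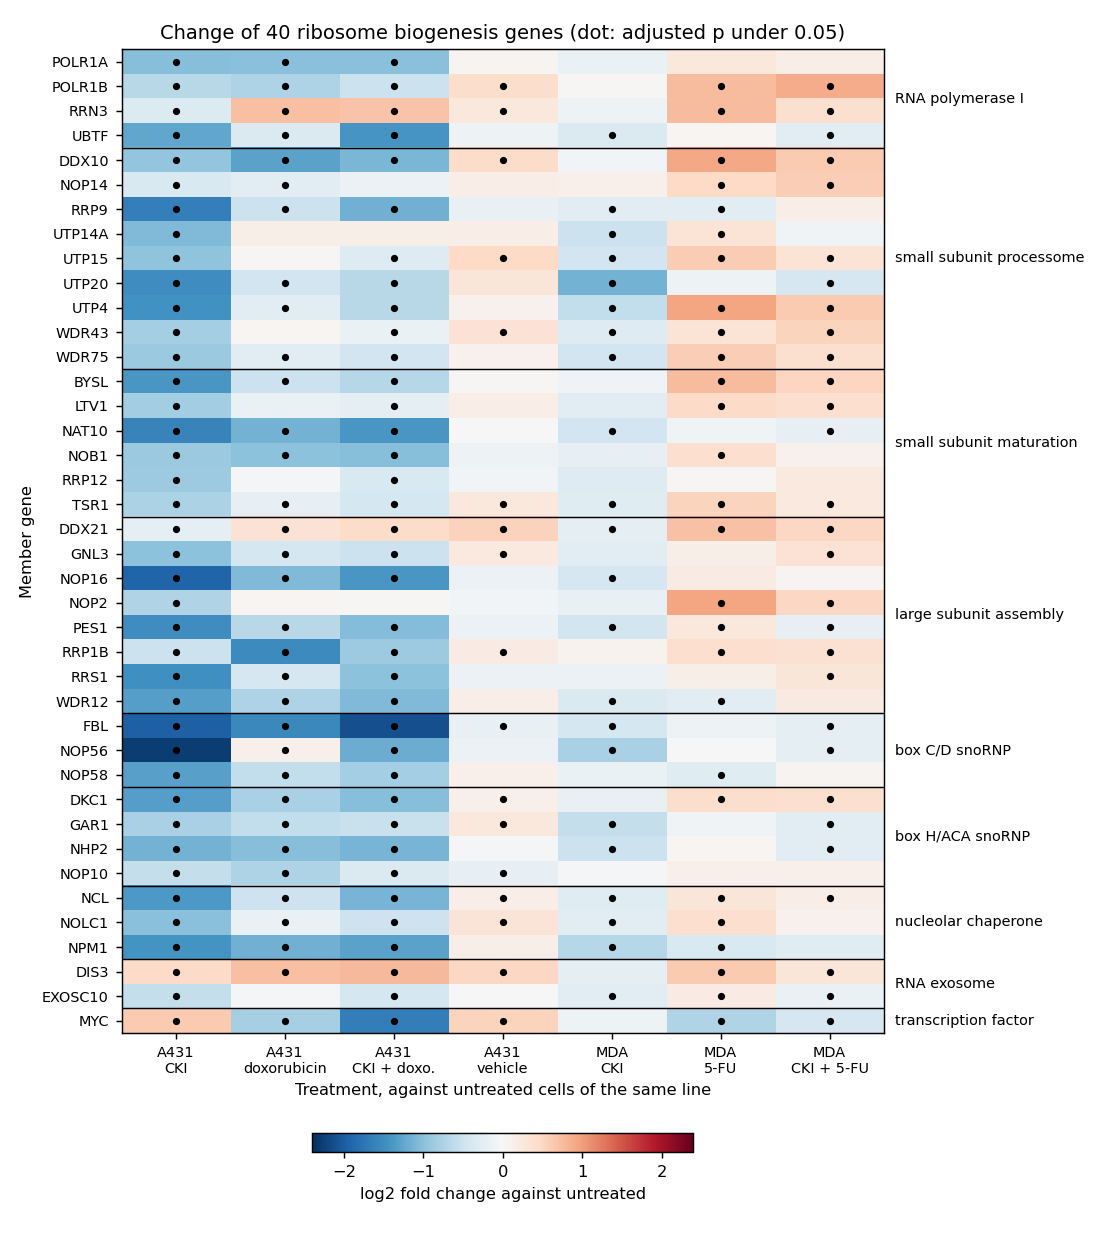
Log2 fold change of the 40 members (rows, ordered by role) in the 7 treated groups against untreated cells of the same line (columns), with a dot where the adjusted p was under 0.05. The A431 CKI column is lower in 38 of 40 rows, while the MDA-MB-231 5-FU column is called higher in 22.

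The box C/D proteins had the largest median decrease of the roles, at -1.95 over 3 members, although NOP58 fell less than several members of other roles. NOP56 (chromosome 20, 2633239 to 2639039, forward strand, GRCh37), a core scaffold of these particles, was at 447, 472 and 444 CPM in the untreated libraries and at 103, 95.7 and 97.0 CPM under CKI. The groups were far apart, and the log2 fold change was -2.28 (SE 0.0568, adjusted p = 2.88e-19). FBL (fibrillarin, chromosome 19, 40325098 to 40337019, reverse strand) had 295, 314 and 328 CPM untreated and 83.1, 84.1 and 87.9 CPM treated. It fell by 1.95 on the log2 scale (SE 0.0586, adjusted p = 4.99e-18), and NOP58, the other scaffold, by 1.30. All 4 box H/ACA proteins fell as well, from 0.57 for NOP10 to 1.31 for DKC1.

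Nucleolin, an abundant nucleolar protein that binds nascent rRNA (NCL, chromosome 2, 232318242 to 232348352, reverse strand), was at 1369, 1447 and 1412 CPM in untreated A431 cells and at 581, 561 and 573 CPM under CKI. No treated library came near an untreated one, and the log2 fold change was -1.38 (SE 0.0474, adjusted p = 5.48e-17). The other chaperones, NPM1 and NOLC1, a chaperone of snoRNPs, fell by 1.44 and 1.01.

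All 4 factors of RNA polymerase I fell, by unequal amounts. POLR1A, the largest subunit of the enzyme (chromosome 2, 86247339 to 86333278, reverse strand), had 75.8, 74.5 and 86.4 CPM untreated and 40.9, 42.4 and 38.9 CPM under CKI. Its log2 fold change was -1.03 (SE 0.0729, adjusted p = 1.59e-11). UBTF, which binds the ribosomal DNA, fell by 1.25, POLR1B, the second-largest subunit, by 0.67, and RRN3, which brings the enzyme to its promoter, by 0.32.

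Each of the 9 processome members fell, from 0.37 for NOP14 to 1.64 for RRP9. All 6 small subunit maturation factors fell as well, led by the rRNA cytidine acetyltransferase NAT10 (-1.60, SE 0.0624, adjusted p = 4.65e-16). All 8 large subunit factors fell too, from 0.22 for the helicase DDX21 to 1.91 for NOP16. PES1 and WDR12, which form a complex with BOP1, fell by 1.49 and 1.33.

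The members that rose were MYC and DIS3, a catalytic nuclease of the RNA exosome. MYC was at 144, 137 and 161 CPM untreated and at 223, 259 and 238 CPM under CKI, with a log2 fold change of 0.63 (SE 0.0759, adjusted p = 1.25e-07). DIS3 went from 46.8, 48.4 and 47.6 CPM to 69.1, 69.8 and 69.1 CPM, a change of 0.47 (SE 0.0689, adjusted p = 2.47e-06). Neither call held against the vehicle group, where the log2 fold change was 0.10 for MYC (adjusted p = 0.237) and -0.02 for DIS3 (adjusted p = 0.782). The exosome's other nuclease, EXOSC10, fell by 0.57.

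The vehicle group itself differed from untreated A431 cells, and its replicates differed more from each other than those of the other A431 groups. DDX21, DIS3 and MYC were among the 15 members that rose, and 2 fell, where 23.2% and 19.3% of all genes tested were called. DDX21 was at 279, 279.5 and 242 CPM with vehicle against 175, 183 and 195 CPM untreated (log2 fold change 0.55, SE 0.0645, adjusted p = 9.95e-07). DIS3 was at 71.4, 68.0 and 58.7 CPM with vehicle (0.49, adjusted p = 1.1e-05), and MYC at 183, 218 and 226 CPM (0.53, adjusted p = 1.43e-05). In these 3 genes each vehicle library lay above each untreated one.

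FBL was at 272, 261 and 285 CPM with vehicle, just under the untreated libraries, and fell by 0.18 (adjusted p = 0.0138), a change that turned to 0.12 once GC content and transcript length were fitted. POLR1A, at 74.8, 85.3 and 85.3 CPM, overlapped the untreated libraries (0.07, adjusted p = 0.445). NCL, at 1539.8, 1558 and 1540.1 CPM, rose by 0.15 (adjusted p = 0.0112). Over all genes the change with vehicle followed GC content (Spearman's rho -0.58 across genes), and its part in these values was not tested beyond that fit, in which 9 members and 11.6% of all genes were higher. Set against vehicle in place of untreated cells, CKI lowered 38 members, where 33% of all genes were called lower, with 27 past a fold of 2 (8.22% of all genes) and a median log2 fold change of -1.18, against 0.00 for all genes. By edgeR no member was called higher against vehicle, where 32% of all genes were, and 0 were higher at an unadjusted p under 0.05.

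**Figure D2:**
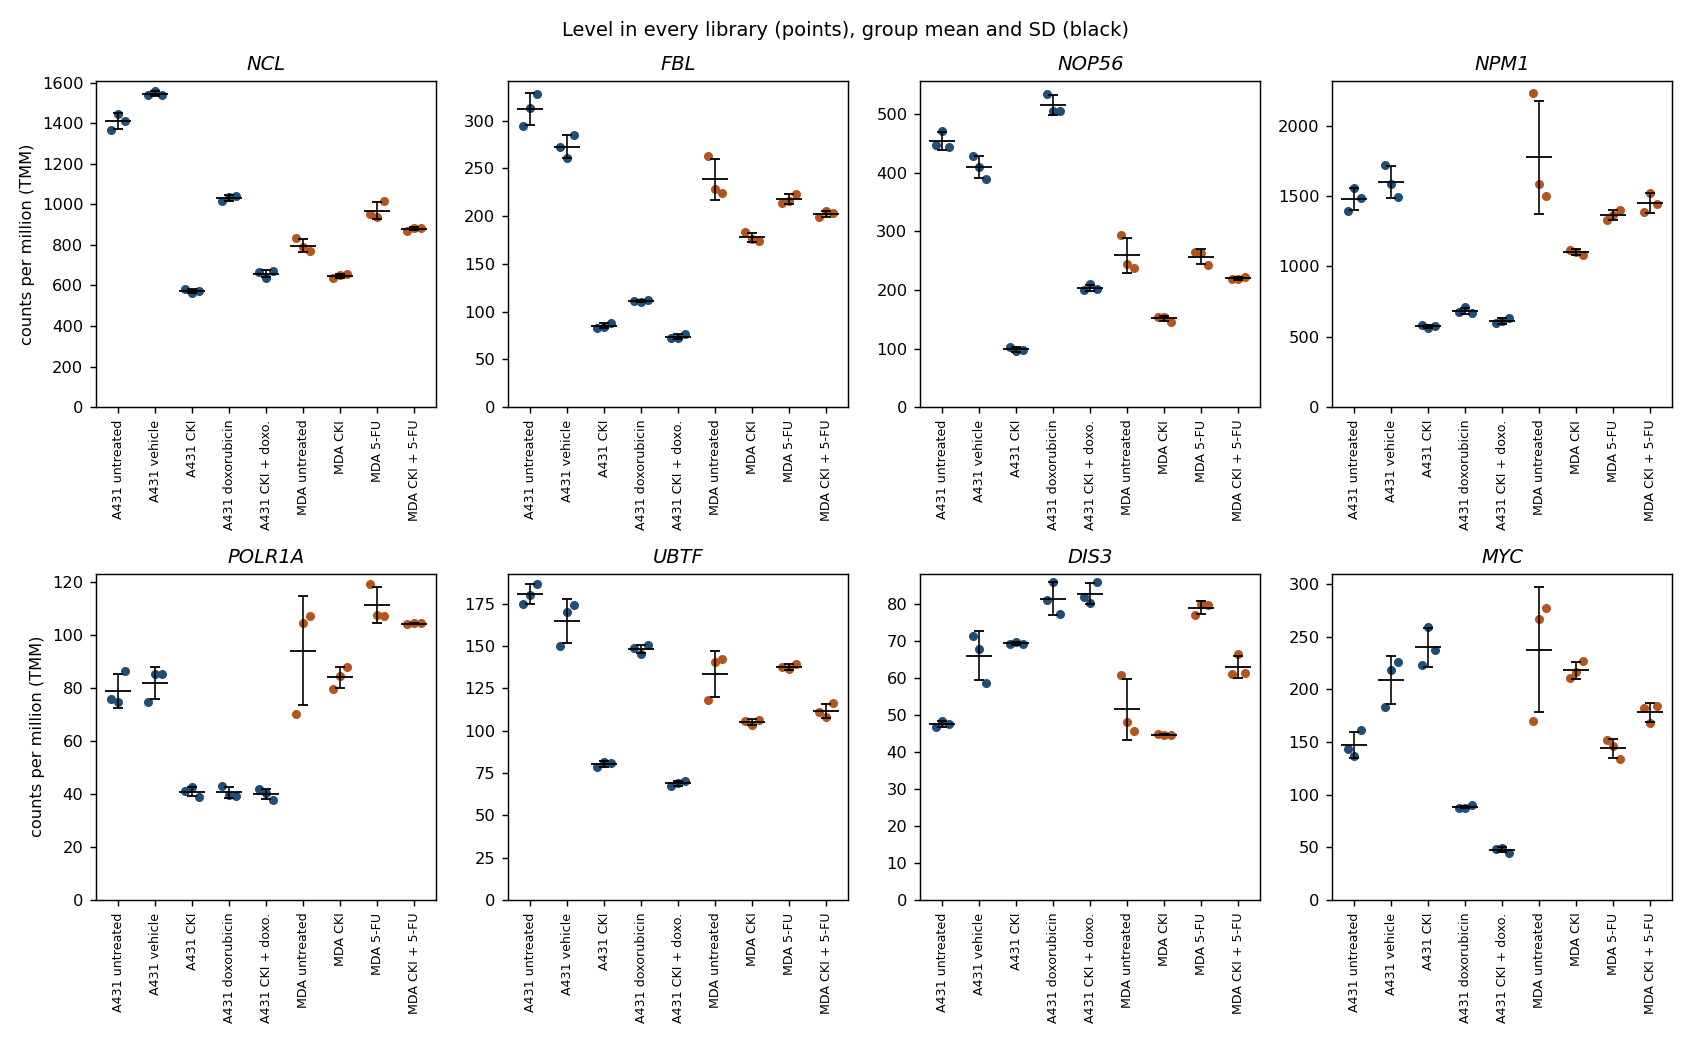
CPM of 8 members in every library (points) of the 9 groups, with the group mean and SD in black and the axis starting at 0. FBL lies between 72.2 and 112 CPM in the CKI, doxorubicin and combined A431 groups and at 261 CPM or above in untreated and vehicle A431 cells, while MYC in A431 cells lies at 223 to 259 CPM under CKI and at 44.9 to 49.5 CPM under CKI with doxorubicin.

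Doxorubicin changed fewer members than CKI and moved them in both directions. In A431 cells 29 members fell and 4 rose, where 39.9% of all genes tested were called lower and 40.7% higher, and 8 fell past a fold of 2 (14.3% of all genes). The median log2 fold change was -0.49 for the members and 0.02 for all genes. These values depend on the scaling. With library size alone, without TMM, the median of all genes was 0.36 and that of the members -0.14, and the calls became 20 lower and 12 higher, where 26.9% and 54.5% of all genes were called. The 8 members past a fold of 2 became 2 with that scaling (8.27% of all genes), 3 with at least 10 counts required in every library (12.6%), and 5 with RLE factors, DESeq2 or the compared groups only (12.4% to 13% of all genes).

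FBL was again among the members that changed most. Its 3 doxorubicin libraries had 110.9, 110.1 and 112 CPM, all below the lowest untreated library, and it fell by 1.55 on the log2 scale (SE 0.0575, adjusted p = 1.1e-16). RRP1B, a nucleolar protein of large subunit assembly, went from 58.1, 57.2 and 57.3 CPM to 20.5, 20.4 and 21.4 CPM (-1.52, SE 0.0644, adjusted p = 1.07e-15). NPM1 went from 1396, 1556 and 1484 CPM to 679.5, 709 and 669 CPM (-1.16, SE 0.0588, adjusted p = 2.83e-14). In each of these genes the 2 groups were well separated. NCL, at 1015, 1035 and 1042 CPM, fell by 0.51 (adjusted p = 1.16e-09). MYC, at 87.6, 87.6 and 89.7 CPM, fell by 0.79 (adjusted p = 3.34e-09), with every treated library below every untreated one.

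The RNA polymerase I factors split under doxorubicin. POLR1A, at 43.1, 39.5 and 39.3 CPM, fell by 1.01 (adjusted p = 1.51e-11), POLR1B by 0.75 and UBTF by 0.34, although the UBTF value was 0.01 with library size alone. RRN3 rose, from 50.2, 49.7 and 51.0 CPM to 87.0, 90.2 and 82.3 CPM (0.73, SE 0.0705, adjusted p = 2.67e-09). DIS3 rose to 81.1, 86.1 and 77.2 CPM (0.72, SE 0.0685, adjusted p = 1.93e-09). No treated library of these risers overlapped an untreated one.

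DDX21, at 238, 258 and 231 CPM, rose by 0.34 (adjusted p = 5.1e-05) against untreated cells but was at -0.21 against vehicle (adjusted p = 0.00426). NOP56, which CKI lowered most, was at 535, 505 and 506 CPM and rose by 0.13 (adjusted p = 0.0316). That value became -0.03 once GC content and length were fitted, and it was 0.26 against vehicle (adjusted p = 0.00012). Against vehicle, doxorubicin lowered 33 members and raised 3, where 41.6% and 39.9% of all genes were called.

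Together, CKI and doxorubicin lowered 34 members and raised 3 against untreated A431 cells, where 38.5% of all genes were called lower and 40.7% higher. Past a fold of 2, 16 members fell (13.8% of all genes), and the median log2 fold change was -0.68 against 0.05 for all genes. With library size alone, the all-gene median was 0.36, the members' median -0.36, and the calls 27 lower and 7 higher, where 26.5% and 53.3% of all genes were called. The 16 past a fold of 2 became 5 with that scaling (8.23% of all genes) and 8 with at least 10 counts required in every library (12.7%). FBL, at 72.9, 72.2 and 76.5 CPM, fell by 2.10 (SE 0.0589, adjusted p = 8.16e-19). NCL, at 666, 639 and 671 CPM, fell by 1.12 (SE 0.0471, adjusted p = 9.57e-16). In both genes the treated libraries were far below the untreated ones.

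UBTF went from 175, 180.2 and 187 CPM to 67.3, 68.9 and 70.4 CPM (-1.42, SE 0.0596, adjusted p = 1e-15). MYC was at 47.9, 49.5 and 44.9 CPM, below every other A431 library (-1.66, SE 0.0805, adjusted p = 1.3e-14). POLR1A, at 41.7, 40.2 and 37.8 CPM, fell by 1.01 (adjusted p = 1.63e-11). The 3 members that rose were DIS3 (82.0, 80.4 and 86.0 CPM, log2 fold change 0.77), RRN3 (79.8, 81.1 and 85.1 CPM, 0.68) and DDX21 (261, 248 and 258 CPM, 0.45), and DDX21 was at -0.10 against vehicle (adjusted p = 0.139). Against vehicle the combination lowered 34 members and raised 2, where 39% and 39.2% of all genes were called.

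Added to doxorubicin, CKI lowered 22 members and raised 3, where 29.8% and 33.8% of all genes were called, with a median log2 fold change of -0.21. NOP56 (-1.31, SE 0.0544, adjusted p = 3.34e-15) and UBTF (-1.08, SE 0.0593, adjusted p = 4.44e-13) were the 2 members that fell past a fold of 2 (8.03% of all genes). MYC fell by 0.87 (SE 0.0803, adjusted p = 2.95e-09), whereas with CKI alone it had risen against untreated cells but was not called against vehicle. RRP1B (0.66), NOP10 (0.39) and POLR1B (0.24) rose, and POLR1A did not pass the test (0.00, adjusted p = 0.966).

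The log2 fold change under CKI was shifted upward beside doxorubicin in most members, by the interaction term, which is the log2 fold change of CKI with the drug minus that without. CKI alone had lowered each of the members shifted upward. The change went from lower to higher, both called, in RRP1B (-0.52 to 0.66), NOP10 (-0.57 to 0.39) and POLR1B (-0.67 to 0.24). The interaction term was above 0 in 38 of the 40 members and called in 36. Of all genes, 31.4% were called in that direction and 26% in the other. Past a fold of 2, 16 members were higher and 1 lower (8.56% and 10.9% of all genes), and the 16 became 8 with library size alone (6.47%) and 9 with at least 10 counts required in every library (7.63%). The median was 0.90 for the members and 0.04 for all genes. The members with the highest values were NOP16 (1.58, SE 0.0987, adjusted p = 9.16e-12), FBL (1.39, SE 0.0817, adjusted p = 3.17e-12) and NAT10 (1.34, SE 0.0874, adjusted p = 1.74e-11). These members were already lower with doxorubicin, and both CKI contrasts are differences between the same 4 groups.

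The other direction held MYC (-1.50, SE 0.111, adjusted p = 1.24e-10) and DIS3 (-0.42, SE 0.0953, adjusted p = 0.000723). Against vehicle the value for MYC was -0.97 and that for DIS3 0.07 (adjusted p = 0.516). UBTF (0.17, adjusted p = 0.0888) and EXOSC10 (0.19, adjusted p = 0.0727) did not pass the test.

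**Figure D3:**
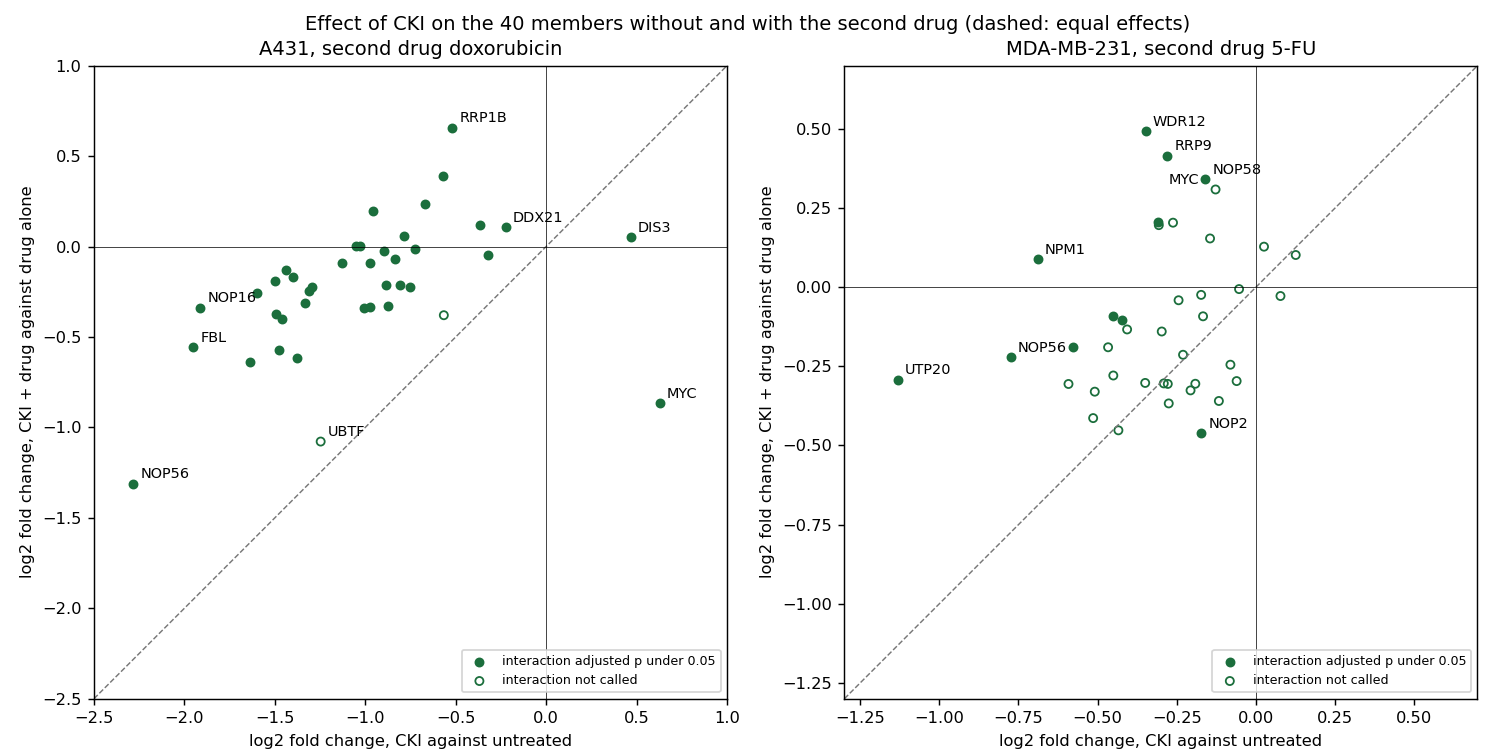
Log2 fold change of CKI against untreated cells (x axis) and of CKI with a drug against that drug (y axis) for the 40 members, with doxorubicin in A431 and with 5-FU in MDA-MB-231. The dashed line marks equal effects and filled points have a called interaction, so the A431 members lie above the line in 38 of 40 cases.

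In MDA-MB-231 cells CKI lowered 22 members, where 18.8% of the 13999 genes tested were called lower. By edgeR no member was called higher (17.4% of all genes were), with 1 at an unadjusted p under 0.05 and 0 by DESeq2. The median log2 fold change was -0.28, against -0.01 for all genes. UTP20, a large scaffold of the small subunit processome, was the 1 member that fell past a fold of 2 (2.21% of all genes). It went from 45.5, 49.5 and 46.7 CPM to 19.4, 22.6 and 22.7 CPM (-1.13, SE 0.0916, adjusted p = 3.12e-06).

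NOP56 went from 294, 245 and 238 CPM to 154, 155 and 146 CPM (-0.78, SE 0.0769, adjusted p = 1.48e-05). NHP2, a box H/ACA protein, went from 88.0, 93.6 and 89.0 CPM to 67.0, 59.4 and 63.9 CPM (-0.51, SE 0.0692, adjusted p = 0.00015). In UTP20, NOP56 and NHP2 the groups did not overlap. FBL went from 263, 228 and 224 CPM to 183, 177 and 174 CPM (-0.42, adjusted p = 0.000316), and NCL from 832, 787 and 769 CPM to 637, 651 and 657 CPM (-0.30, adjusted p = 0.000792).

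For POLR1A and MYC the untreated library that stood apart lay below the treated range and the other untreated libraries lay above it. POLR1A had 70.3, 104.5 and 107 CPM untreated and 79.7, 84.3 and 87.8 CPM under CKI (-0.17, adjusted p = 0.333). MYC had 169.6, 267 and 278 CPM untreated and 211, 217 and 227 CPM under CKI (-0.13, adjusted p = 0.524). Without untreated replicate 1, 27 members fell and 1 rose, where 26.6% and 25.2% of all genes were called.

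The response to CKI differed between the lines in most members. The interaction of line and CKI, the log2 fold change in A431 minus that in MDA-MB-231, was called lower in 33 members and higher in 2, where 23.9% and 23.1% of all genes were called, with a median of -0.69. Past a fold of 2, 11 members were lower (9.62% of all genes). FBL (-1.52, SE 0.111, adjusted p = 2.82e-07), NOP56 (-1.50, SE 0.12, adjusted p = 5.65e-07) and NCL (-1.07, SE 0.0871, adjusted p = 6.33e-07) fell further in A431. MYC (0.76, adjusted p = 0.00712) and DIS3 (0.68, adjusted p = 0.00101) differed the other way. Both also rose with vehicle alone in A431 cells (0.53 and 0.49), and neither was called under CKI against vehicle. MDA-MB-231 had no vehicle group, so the lines were compared against untreated cells only. UTP20 did not pass the test (-0.36, adjusted p = 0.0669).

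**Figure D4:**
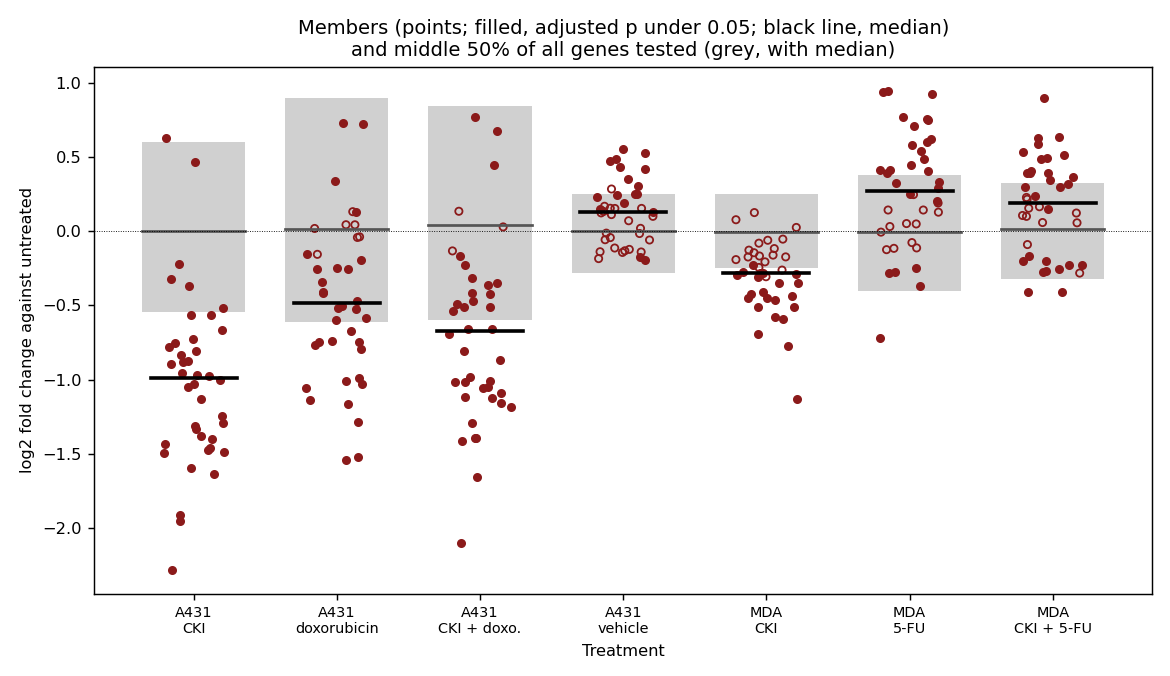
Log2 fold change of each member (points, filled where called) with the members' median in black, beside the middle 50% and median of all genes tested in grey, for each comparison. The members' median is -0.99 under CKI in A431, -0.49 under doxorubicin, -0.28 under CKI in MDA-MB-231 and 0.27 under 5-FU.

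5-FU moved the machinery the other way. In MDA-MB-231 cells 22 members rose and 5 fell, where 28.6% of all genes were called higher and 28.5% lower. The median log2 fold change was 0.27 for the members and -0.00 for all genes. With library size alone the medians were 0.40 and 0.13, and 1 member fell, where 21.6% of all genes did.

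NOP2, a methyltransferase of large subunit rRNA, went from 64.6, 61.2 and 56.8 CPM to 114.5, 122.5 and 113.8 CPM (0.95, SE 0.0636, adjusted p = 2.12e-07). BYSL, which acts in small subunit maturation, went from 95.6, 91.1 and 95.4 CPM to 158, 159 and 157 CPM (0.76, SE 0.0517, adjusted p = 2.41e-07). DDX10 went from 79.3, 73.5 and 69.4 CPM to 138, 137 and 144 CPM (0.92, SE 0.0636, adjusted p = 2.53e-07). All 9 treated values lay above all untreated values of the same gene. Among the RNA polymerase I factors, POLR1B rose by 0.77 and RRN3 by 0.75. POLR1A, at 119, 107.4 and 107.2 CPM, overlapped the untreated libraries (0.25, adjusted p = 0.112).

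NCL, at 951, 939.8 and 1018 CPM, rose by 0.29 (adjusted p = 0.000417), and FBL, at 214, 216 and 224 CPM, did not pass the test (-0.12, adjusted p = 0.114). The 5 members that fell were MYC, NPM1, NOP58, WDR12 and RRP9. MYC, at 152, 146 and 134 CPM, fell by 0.72 (SE 0.143, adjusted p = 0.00104). NOP58 went from 100.9, 84.4 and 77.1 CPM to 70.0, 70.8 and 73.7 CPM (-0.28, SE 0.0838, adjusted p = 0.0121), and RRP9 from 52.9, 61.9 and 59.0 CPM to 48.3, 50.8 and 46.4 CPM (-0.25, SE 0.0775, adjusted p = 0.0154). Without untreated replicate 1 the WDR12 value was -0.15 and no longer passed the test. Leaving out 5-FU replicate 1 or replicate 3 left 3 members lower, where 25% and 24.7% of all genes were.

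CKI with 5-FU kept more members higher than lower against untreated MDA-MB-231 cells. Of the 40, 19 rose and 10 fell, where 26% and 23.7% of all genes were called, with a median log2 fold change of 0.19. POLR1B went from 28.3, 27.9 and 27.4 CPM to 50.7, 54.9 and 49.2 CPM (0.90, SE 0.0698, adjusted p = 1.09e-06). NOP14 went from 81.7, 87.0 and 82.1 CPM to 125.5, 128 and 121 CPM (0.59, SE 0.0553, adjusted p = 5.05e-06), and BYSL rose to 134, 131 and 135 CPM (0.51, SE 0.0516, adjusted p = 8.59e-06). These 3 genes had no overlap between the groups.

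UTP20, at 32.5, 40.2 and 33.5 CPM, fell by 0.41 (SE 0.0891, adjusted p = 0.00248). NHP2, at 75.5, 69.6 and 76.8 CPM, fell by 0.28 (SE 0.0688, adjusted p = 0.00535), and FBL, at 199, 205 and 203 CPM, by 0.23 (SE 0.0637, adjusted p = 0.0106). Each lay below all untreated libraries. NCL, at 871, 885 and 882 CPM, rose by 0.15 (adjusted p = 0.0273), and MYC, at 183, 168 and 184 CPM, fell by 0.41 (adjusted p = 0.031), with 1 untreated library inside the treated range. POLR1A had 103.9, 104.3 and 104.5 CPM (0.16, adjusted p = 0.325). Leaving out a library of CKI with 5-FU left 5 members lower without replicate 1 and 6 without replicate 2 or 3, where 19.1% to 20.1% of all genes were.

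Added to 5-FU, CKI lowered 19 members and raised 4, where 24.5% and 25.9% of all genes were called. The median log2 fold change was -0.16. Leaving out single libraries gave 14 to 16 lower and 3 to 4 higher, ranges not set against all genes here. NOP2 fell by 0.46 (SE 0.0629, adjusted p = 8.45e-05). The 4 that rose were WDR12 (0.49), RRP9 (0.42), NOP58 (0.34) and WDR43 (0.20). The interaction of CKI and 5-FU was called higher in 10 members and lower in 1, NOP2, where 17.1% and 14.3% of all genes were called. WDR12 (0.84, SE 0.141, adjusted p = 0.000972) and UTP20 (0.84, SE 0.127, adjusted p = 0.000518) had the highest values. Without untreated replicate 1 these counts were 17 and 6, where 25.4% and 23.7% of all genes were called.

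The other genes of ribosome making, taken from lists of the pathway that hold none of the 40, were counted by the same test. Under CKI in A431 cells 40 of 43 other small subunit factors fell and 1 rose, 50 of 53 large subunit factors fell and 1 rose, all 13 other RNA polymerase I factors fell, and 24 of 26 genes of the exosome and RNase MRP fell and 1 rose, where 33.7% of all genes were lower and 33.3% higher. The examples of smallest adjusted p included MRTO4 (-2.04), a large subunit assembly factor, EXOSC5 (-2.09), an exosome subunit, and DDX49 (-1.98), a helicase. With doxorubicin the same lists gave 26 lower and 12 higher, 31 and 10, 5 and 5, and 13 and 5, where 39.9% of all genes were lower and 40.7% higher.

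With CKI in MDA-MB-231 cells the lists gave 12 lower and 1 higher, 22 and 3, 7 and 0, and 6 and 2, where 18.8% of all genes were lower and 17.4% higher. With 5-FU they gave 3 lower and 21 higher, 8 and 27, 1 and 8, and 3 and 14, where 28.5% and 28.6% of all genes were called, with POP1, a subunit of RNase MRP, at 1.29 and the helicase DDX55 at 0.96. Of 12 other genes of the MYC network, 7 rose and 3 fell under CKI in A431 cells. Of all genes tested, 33.3% were called higher and 33.7% lower in that comparison. The MYC antagonist MXD1 was among those that rose (1.59). MXD1 also rose with doxorubicin (1.31), with 5-FU in MDA-MB-231 cells (1.58) and with vehicle alone in A431 cells (1.19). MXD3, another MYC antagonist of the list, went the other way in A431 cells, at -1.13 under CKI and -0.68 with vehicle alone. For the antagonist MXI1 the interaction of line and CKI was 0.65. Under 5-FU MXD3 was at -0.98 and MXI1 at -0.92, where 4 genes of the list rose and 4 fell.

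**Figure D5:**
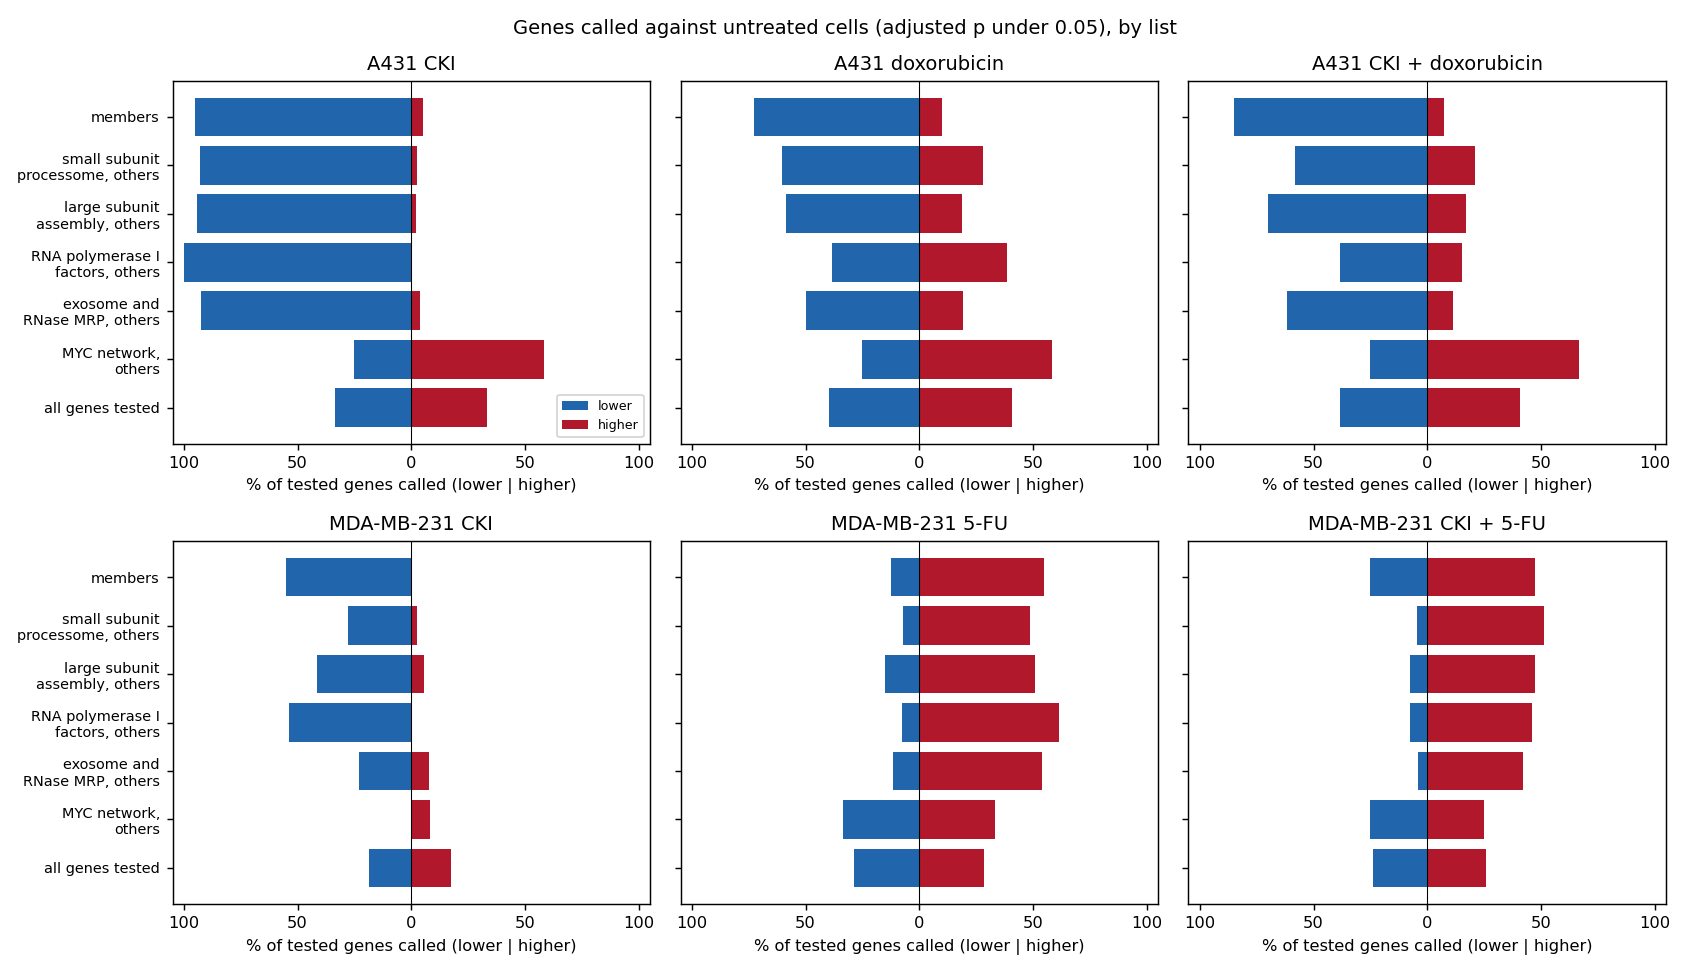
Percent of each gene list called lower or higher in 6 comparisons, for the 40 members, the other pathway lists and all genes tested. Under CKI in A431 the ribosome-making lists are almost wholly lower while all genes stand at 33.7% lower and 33.3% higher.

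The libraries were unstranded, and 19 members share exonic bases with another coding or lncRNA gene in the GRCh37 annotation used here. Among them are DIS3 with BORA, MYC with CASC11, PES1 with TCN2 and WDR12 with NBEAL1. The annotation behind the counts is not given and may differ. Reads of such partners cannot be told apart, and the values of these members carry that uncertainty. No source says that replicates came from separate cultures, so the p-values measure only the spread between these libraries.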

How the data were processed

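RNA-seq counts of 27 libraries (9 groups, 3 replicates) were taken from a table the authors deposited as raw read counts per Entrez gene. Per the labels and the submitters' processing notes, reads were trimmed with Trim Galore 0.3.7 and aligned with STAR 2.5.3a to hg19; the counting tool and annotation are not given in the sources used here. In each line, genes passing filterByExpr were scaled by TMM and fitted with edgeR 4.0.16 (R 4.3.3, glmQLFit and glmQLFTest, group only), with Benjamini-Hochberg adjustment and a threshold of 0.05. Lines were compared in one fit of the untreated and CKI libraries. Alternatives were RLE factors, library size alone, other filters, DESeq2 1.42.0, the compared groups alone, an offset for GC content and length, a replicate block, vehicle as control, and leaving out each library. Scripts were tested on simulated data. Totals of 17757206 to 22809339 counts set the counting precision.

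The members and lists were chosen with earlier results of these data known. Every library's values are given, against untreated cells, for NCL, FBL, POLR1A, MYC and the 3 members of smallest adjusted p in each direction whose libraries do not overlap. From the other lists up to 2 genes per direction were eligible by smallest adjusted p. Other members' values were chosen after they were seen. Positions are on GRCh37, promoters on GRCh38.p14.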

Additional observations from a re-analysis of the deposited data

Results flagged for a closer look

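These results stood out because the effect of CKI differed between 2 settings by a test of the difference itself, the interaction term of edgeR's quasi-likelihood model. Beside doxorubicin in A431 cells the term was called higher in 36 members and lower in 2, where 31.4% and 26% of all genes were called. Its members past a fold of 2 were NPM1 (1.31), FBL (1.39), DKC1 (1.07), NOP58 (1.07), NHP2 (1.04), NOP16 (1.58), PES1 (1.12), WDR12 (1.02), UTP4 (1.06), UTP14A (1.05), UTP20 (1.31), RRP1B (1.17), BYSL (1.23), DDX10 (1.16), POLR1A (1.03), NAT10 (1.34), MYC (-1.50). Of these, 16 were higher and 1 lower, where 8.56% and 10.9% of all genes were. The 16 became fewer with library size alone or with at least 10 counts required in every library, as given above. Beside 5-FU in MDA-MB-231 cells the term was called higher in 10 members and lower in 1, where 17.1% and 14.3% of all genes were called. Leaving out single libraries gave 8 to 17 higher and 0 to 6 lower, ranges not set against all genes here.

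Between the lines the term for CKI, A431 minus MDA-MB-231, was called lower in 33 members and higher in 2, where 23.9% and 23.1% of all genes were called. Its members past a fold of 2 were NCL (-1.07), FBL (-1.52), DKC1 (-1.13), NOP56 (-1.50), NOP58 (-1.13), NOP16 (-1.50), PES1 (-1.05), RRP9 (-1.35), RRS1 (-1.32), BYSL (-1.31), NAT10 (-1.14). These were 11 members, where 9.62% of all genes were lower past that fold. Leaving out single libraries gave 8 to 12, a range not set against all genes here. Replicate 1 of untreated MDA-MB-231, the library that stood apart, enters this comparison. Without it 37 members were called lower and 2 higher, where 30.9% and 28.6% of all genes were called.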

How the results depend on the processing

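Of 476 counts of members under other settings, 424 stayed within 1.5 times the value reported, and of 3432 called member values 3238 kept direction and call, 173 lost the call and 21 turned. With 1 library left out, 2564 of 2724 kept both, 160 lost the call and 0 turned. The share of all genes called also moved between settings. The counts below are not set against that share, so they show only how far a count depends on the setting.

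With library size alone, doxorubicin gave 12 members higher, 2 lower and 2 higher past a fold of 2. NOP14 (0.10), UBTF (0.0051), WDR75 (0.087), UTP4 (0.091), NOLC1 (0.19) and TSR1 (0.15) turned. CKI with doxorubicin gave 7 higher, 5 lower and 1 higher past a fold of 2, and LTV1 (0.0897) and WDR43 (0.15) turned. The interaction with doxorubicin had 8 past a fold of 2. 5-FU gave 1 lower and 3 higher past a fold of 2, CKI with 5-FU 1 and 1, CKI in MDA-MB-231 1 higher, vehicle 4 lower and the interaction with 5-FU 3 lower. The scaling itself moves the median of all genes.

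With at least 10 counts in every library, doxorubicin gave 8 higher and 3 lower past a fold of 2 (NOLC1 0.0165), CKI with doxorubicin 5 and 8, its interaction 9 past a fold of 2, vehicle 5 lower and the interaction with 5-FU 2 lower. With no filter the last pair gave 1 and 0. RLE factors and DESeq2 each gave 5 lower for vehicle and 5 past a fold of 2 for doxorubicin, and DESeq2 gave 3 lower for the interaction with 5-FU. With the compared groups only, 5-FU had 1 lower, CKI with 5-FU 2 lower, CKI added to 5-FU 7 higher, vehicle 0 lower and 8 higher, and doxorubicin 7 higher and 5 lower past a fold of 2.

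With the GC and length offset, vehicle gave 9 higher (RRN3 -0.0075, FBL 0.12), CKI 1 higher in each line, CKI added to doxorubicin 6 higher (BYSL 0.0588), CKI added to 5-FU 9 higher, the interaction with 5-FU 3 lower and 16 higher, and NOP56 under doxorubicin -0.0277. Same-numbered libraries of compared groups showed no strong shared deviation (r -0.295 to 0.121). With 3 libraries a group, this cannot show whether they shared a culture or batch. The replicate block gave 0 lower for the interaction with 5-FU. Block and offset together gave 9 higher for vehicle (RRN3 -0.0078, FBL 0.12), 1 higher for CKI in each line, 7 higher for CKI added to doxorubicin (BYSL 0.0592), 7 higher for CKI added to 5-FU, 3 lower for the interaction with 5-FU and -0.0279 for NOP56 under doxorubicin.

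With vehicle as the control, CKI in A431 raised 0 members and its interaction with doxorubicin had 1 lower and 0 lower past a fold of 2. DIS3 was at -0.0236 under CKI and 0.0748 in the interaction, and DDX21 at -0.21 with doxorubicin and -0.10 with both. Leaving out single libraries gave 0 to 1 higher for CKI in MDA-MB-231, 3 to 6 lower and 0 to 1 higher past a fold of 2 for 5-FU, 5 to 10 lower for CKI with 5-FU, 0 to 6 lower and 8 to 17 higher for the interaction with 5-FU, and 0 to 7 lower for vehicle. The cause of these changes was not tested, and 3 libraries a group limit the precision.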
